A study of Mus musculus with 6 samples.

Results

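The let-7 and miR-98 family was read on 6 one-colour microRNA (miRNA) arrays. The RNA came from MCT, an established line of mouse kidney tubule cells from the SJL H-2S strain. The 3 control and 3 TGFβ arrays shared one culture protocol in the labels, with growth in DMEM and 10% fetal calf serum followed by a change to 0.5% serum. Treated cells then had 3 ng/ml of transforming growth factor beta (TGFβ) for 72 hours, and the labels used here name no vehicle for the controls. The array named 9 guide strands of the family (mmu-let-7a, b, c, d, e, f, g and i, and mmu-miR-98) among 611 mouse entries, and these 9 were taken by name, without their opposite (star) arms. Each was read by 2 probes of 10 spots, which makes 18 of 1759 mouse probes. Nothing in the labels says that the 3 arrays of a group came from separate cultures, so the spread behind each p-value is that between these arrays and may be technical only.

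The let-7 miRNAs are small RNAs that repress messenger RNAs matching their seed, the stretch from base 2 to base 8 of the guide strand. They accumulate as cells differentiate, and their known targets include Lin28a and Lin28b, Hmga2, Myc and Ras genes. LIN28 proteins in turn bind the loop of let-7 precursors and block their maturation, and precursors carrying the letters GGAG in the loop are the usual substrates. Tgfbr1, which encodes the type I TGFβ receptor, and collagen genes have been described as let-7 targets, which is the link to kidney fibrosis. The question of the series was which miRNAs differ after TGFβ.

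The 9 guide strands are shown because their likeness bears on what the probes can separate. All are 22 bases long, and all 9 matched a RefSeq entry (GRCm38.p6 table). The capitals mark the seed.
mmu-let-7a: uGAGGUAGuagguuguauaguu
mmu-let-7b: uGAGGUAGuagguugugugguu
mmu-let-7c: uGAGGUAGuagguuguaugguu
mmu-let-7d: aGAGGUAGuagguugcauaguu
mmu-let-7e: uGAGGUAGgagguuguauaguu
mmu-let-7f: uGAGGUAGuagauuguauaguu
mmu-let-7g: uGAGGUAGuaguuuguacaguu
mmu-let-7i: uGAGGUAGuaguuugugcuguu
mmu-miR-98: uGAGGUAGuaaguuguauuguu

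The seed GAGGUAG was the same in all 9. It was found in 11 of 1679 mouse mature entries (0.655%), and the other 2, let-7k and miR-1961, were not among the entries of this array. Counted from the 5′ end and written against let-7a, let-7c differs by A19G, let-7e by U9G and let-7f by G12A. miR-98 differs by G11A and A19U, and let-7i is the farthest from let-7a with 4 substitutions. Of the 36 pairs of members, 4 differ at 1 base and 10 at 2 bases. Probe sequences were not used here, so signal that a probe takes from a near-identical member was not measured, and each value below is that of the named probes.

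The 12 genes of the family lie on 7 mouse chromosomes, and let-7a, let-7c and let-7f each come from 2 of them, which the array cannot tell apart. On chromosome 13 Mirlet7d, Mirlet7f-1 and Mirlet7a-1 are neighbours. Mirlet7c-2 and Mirlet7b are neighbours on chromosome 15, within the long non-coding gene Lncppara. On chromosome 17 Mirlet7e lies beside Mir99b and Mir125a within Spaca6, and on chromosome 9 Mirlet7g lies within Wdr82. The X-linked pair Mirlet7f-2 and Mir98 lies within Huwe1. The hairpins of that pair are shown because they differ in the loop motif, with GGAG in the loop in capitals where present.
Mirlet7f-2 (GRCm38.p6, chrX:151912346-151912428, plus strand): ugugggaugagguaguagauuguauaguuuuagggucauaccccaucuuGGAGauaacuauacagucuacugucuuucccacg
Mir98 (GRCm38.p6, chrX:151913214-151913321, plus strand): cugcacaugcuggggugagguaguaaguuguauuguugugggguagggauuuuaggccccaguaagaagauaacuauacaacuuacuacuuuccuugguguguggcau

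GGAG was searched on the RNA strand between the arms. It was present in 9 of the 12 family hairpins (75%) and absent from those of Mirlet7b, Mirlet7c-2 and Mir98. Of all 644 mouse hairpins with both arms listed, 52 held it (8.07%). A match describes letters only, since neither LIN28 nor precursor RNA was measured.

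All 9 members were well above background on every array, where between 74 and 103 of the 611 mouse entries were. In order, these were 86, 75 and 74 entries on the controls and 103, 89 and 86 on the TGFβ arrays. Of the 1080 member spots on the 6 arrays, 1037 were well above background. The spots of let-7a to let-7f and let-7i all were, 119 of 120 were for let-7g, and for miR-98 it was 78 of 120. miR-98 was the dim member, with unscaled means between 23.8 and 35.5 intensity units per array. One of its probes (A_54_P1340) passed on 2 of 6 arrays and the other on all 6. The standard error over spots was between 0.586% and 3.60% of the mean for the 8 let-7 members and at most 6.90% for miR-98, which covers the spots of an array and not the spread between arrays. Arrays were scaled to their 75th percentile, and values below are log2 of the scaled signal. In order, this percentile was 363.7, 268.6 and 249.5 on the controls and 365.3, 402.4 and 339.9 on the TGFβ arrays. Controls 2 and 3 thus had the lowest percentiles and the fewest entries above background, and control 1 lay nearer the TGFβ arrays in both. The part of this in the differences below was not tested. Signals of different members are not read as their relative amounts of RNA, since each is read by its own probes. The shares of signal and relative values below serve to compare arrays.

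The cell identity lists showed little of the labelled type. Of 12 tubular epithelium markers 3 were well above background on any array (miR-30a, miR-30c and miR-30d), and miR-192, miR-194 and the miR-200 family were on none. No marker of mesenchyme and smooth muscle (0 of 5 on the array), blood cells (0 of 6), endothelium (0 of 2), neuron (0 of 2) or liver (0 of 1) was, and 1 of 3 skeletal muscle markers was (miR-206). Control 1 stood apart from controls 2 and 3. Its labelling spike-in signal was 1.82 in log10 units and that of the other 5 arrays lay between 2.09 and 2.14. Its hybridisation spike-in signal was also the lowest, at 3.78 against 3.87 to 3.97. It had the most spots flagged as outliers among their replicates, 515 against 289 to 477. The median absolute gap between controls 2 and 3 over the 9 members was 0.02, while control 1 differed from their mean by between -0.85 (let-7f) and 0.04 (let-7e), with 8 of 9 members below it, as were 47 of 84 tested miRNAs. This direction depended on scaling, since before scaling 4 of 9 members were below and 5 above, with a median of 0.09. Results that rest on control 1 are therefore given with and without it. The part of labelling or hybridisation in this was not tested.

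Together the 9 members held 22.1%, 30.5% and 29.1% of the summed mouse signal on the 3 control arrays, in order, and 9.29%, 27.1% and 21.0% on the 3 TGFβ arrays. The control and TGFβ ranges overlapped, and TGFβ 1 had the lowest share. The members' own mean log2 signal on TGFβ 1 (8.34) was close to that on TGFβ 3 (8.33), so the low share came without a lower level of the members than on that array. Entries outside the family were very bright on TGFβ 1, with 14.48 for miR-1224, which reached at most 8.64 on any other array, and 11.62 for miR-494, which reached at most 5.69.

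With all 6 arrays the means of the 9 members were lower in TGFβ-treated cells, and none passed the test. In limma 0 of the 9 members and 0 of the 84 tested miRNAs (0%) had an adjusted p under 0.05, and at an unadjusted p under 0.05 there was 1 member, miR-98, beside 3 lower miRNAs among the 84 (3.57%). With the replicate number as a block 1 of 84 passed, which was no member. The log2 difference was below 0 for 9 of 9 members and for 49 of 84 tested miRNAs (58.3%). Its median was -0.21 over the members and -0.09 over all tested. The smallest member differences were those of let-7e (-0.10, SE 0.16), let-7c (-0.12, SE 0.19) and let-7b (-0.13, SE 0.16), each smaller than its SE.

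miR-98, encoded beside Mirlet7f-2 on the X chromosome, read 4.91, 5.25 and 5.22 on the control arrays, in order of their numbers, and 4.42, 4.85 and 4.51 on the TGFβ arrays. All 3 TGFβ arrays were below all 3 controls, though TGFβ 2 minus control 1 came to only -0.06, and with its brighter probe alone the groups overlapped. The log2 difference was -0.53 (SE 0.18), so control held 1.45 times the signal of TGFβ, with a limma adjusted p of 0.391. let-7i, from a gene of its own on chromosome 10, read 8.80, 8.89 and 8.87 on the controls and 8.68, 8.70 and 8.56 on the TGFβ arrays. The groups again did not overlap, but the gap was small. It came to -0.21 on the log2 scale (SE 0.13), at a limma adjusted p of 0.433. These were the 2 members of 9 whose groups did not overlap, beside 5 of 84 tested miRNAs lower in this way (5.95%).

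The 4 members with the widest spread within control were those made from the chromosome 13 group and let-7g. let-7d read 8.32, 9.04 and 9.05 in control and 8.004, 8.61 and 8.26 with TGFβ, so control 1 lay between the TGFβ arrays. Its log2 difference was -0.51 (SE 0.27, limma adjusted p = 0.425). let-7f, from genes on chromosomes 13 and X, read 8.26, 9.11 and 9.11 on the controls and 8.19, 8.80 and 8.32 on the TGFβ arrays, with the same overlap through control 1, and differed by -0.39 (SE 0.30, limma adjusted p = 0.500). let-7g read 7.52, 8.19 and 8.16 against 7.63, 7.66 and 7.43. Here too controls 2 and 3 were above every TGFβ array and control 1 was not, and the difference was -0.38 (SE 0.22, limma adjusted p = 0.433). let-7a, the third member made from the chromosome 13 group, read 9.04, 9.59 and 9.58 against 9.06, 9.56 and 9.02, where TGFβ 2 lay with controls 2 and 3 and control 1 with the other TGFβ arrays.

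**Figure D1:**
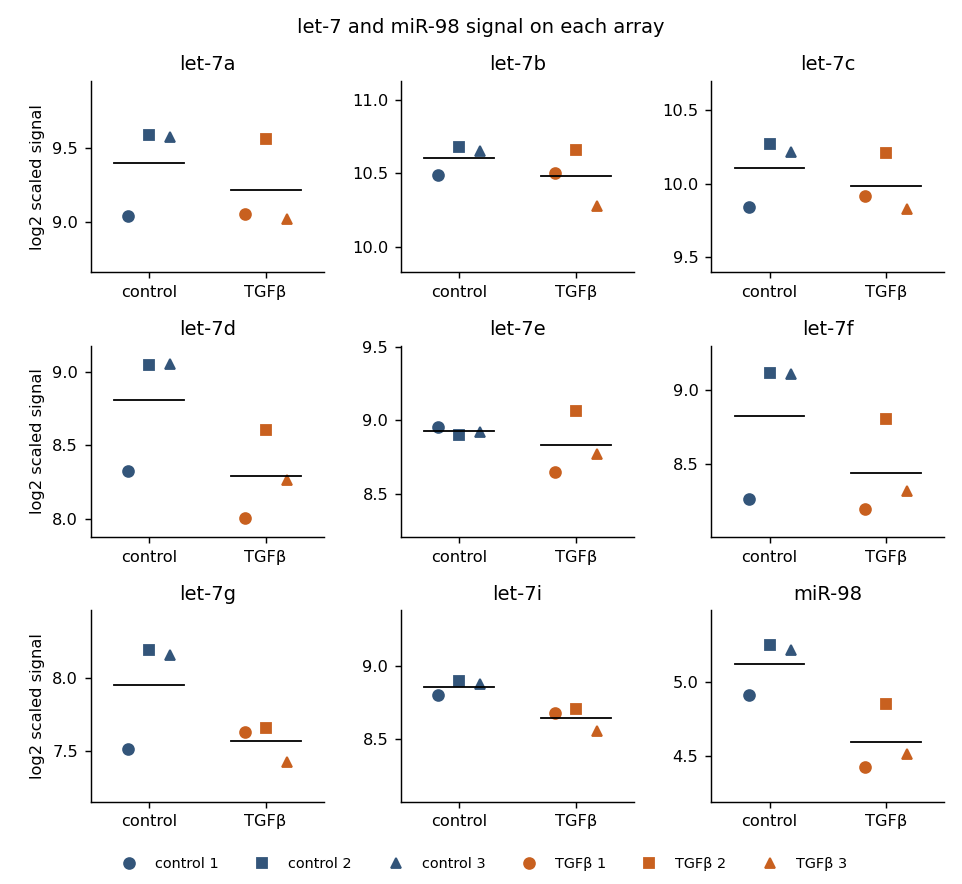
Log2 scaled signal of each member on the 6 arrays, controls in blue and TGFβ arrays in orange, with the group mean as a bar and a span of 1.3 log2 units on every vertical axis. Controls 2 and 3 lie together in every panel, and only let-7i and miR-98 have no overlap between the groups. For let-7a, let-7b, let-7c, let-7d, let-7f and let-7g control 1 lies below controls 2 and 3 and within the range of the TGFβ arrays.

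The remaining members moved little. let-7b read 10.49, 10.68 and 10.65 on the controls and 10.50, 10.66 and 10.28 on the TGFβ arrays, and its neighbour let-7c read 9.84, 10.27 and 10.22 against 9.92, 10.21 and 9.83. In both, TGFβ 2 lay beside controls 2 and 3 and the other TGFβ arrays beside control 1 or below it. let-7e, transcribed with miR-99b and miR-125a, was the steadiest in control with 8.95, 8.90 and 8.92, and read 8.65, 9.06 and 8.77 on the TGFβ arrays, which lay on both sides of the controls.

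Without control 1 the test called 3 members. let-7d was lower by -0.76 (SE 0.20, limma adjusted p = 0.0433), let-7g by -0.61 (SE 0.12, limma adjusted p = 0.0202) and miR-98 by -0.65 (SE 0.16, limma adjusted p = 0.0404), each with 3 of 3 TGFβ arrays below controls 2 and 3. let-7f missed with -0.68 (SE 0.21, limma adjusted p = 0.0590), and let-7e was at -0.09 (SE 0.16). In the same fit 20 of 85 tested miRNAs passed on the lower side (23.5%), and the groups of 7 of 9 members did not overlap, beside 38 of 85 miRNAs lower in this way (44.7%). This array was left out because it lay apart from the other controls, which narrows the spread of control, and the adjusted p-values do not allow for that choice. Leaving out any other single array called 0 members. With array weights that limma estimated, from 0.144 for control 1 to 3.71 for control 2, 6 members passed (let-7a, let-7d, let-7f, let-7g, let-7i and miR-98), beside 27 of 84 miRNAs lower (32.1%). That estimate stopped before it converged. With normexp background correction and no control 1, 3 members passed, beside 29 of 85 miRNAs lower (34.1%).

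The gap within control was as large as the gap between the groups for several members. For let-7f control 1 lay -0.85 from the mean of controls 2 and 3 and the TGFβ mean lay -0.67 from it. The corresponding values were -0.54 and -0.37 for let-7a, -0.40 and -0.26 for let-7c, and -0.66 and -0.60 for let-7g. For these 4 of 9 members control 1 was at least as far below controls 2 and 3 as the TGFβ mean was. Over all tested miRNAs control 1 lay on the side of the TGFβ mean and at least as far out for 44 of 84. It was the other way round for miR-98 (-0.32 and -0.64) and let-7i (-0.08 and -0.24), and the values for let-7d were nearly level (-0.72 and -0.76).

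The sign of the differences depended on how arrays were scaled. Without scaling between arrays the median over all tested miRNAs moved from -0.09 to 0.26 and that over the members from -0.21 to 0.13. let-7a (0.16), let-7b (0.22), let-7c (0.22), let-7e (0.25) and let-7i (0.13) then had a positive difference, while let-7d (-0.17), let-7f (-0.05), let-7g (-0.04) and miR-98 (-0.19) kept a negative one. With the percentile taken over miRNAs in place of probes, let-7b (0.02), let-7c (0.03) and let-7e (0.05) were also positive. Without control 1, 0 members passed when arrays were left unscaled or scaled to the labelling spike-in, and the median of the members was then 0.14 and 0.01. The members' median minus that of all tested miRNAs was -0.12, which a scaling factor per array cannot change. It was -0.02 with the slide column as a block, which compares only TGFβ 2 with control 1 and TGFβ 3 with control 2. It was -0.04 with normexp and -0.29 without control 1. With the slide row as a block, which sets TGFβ 1 alone against the controls, it was -0.33.

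**Figure D2:**
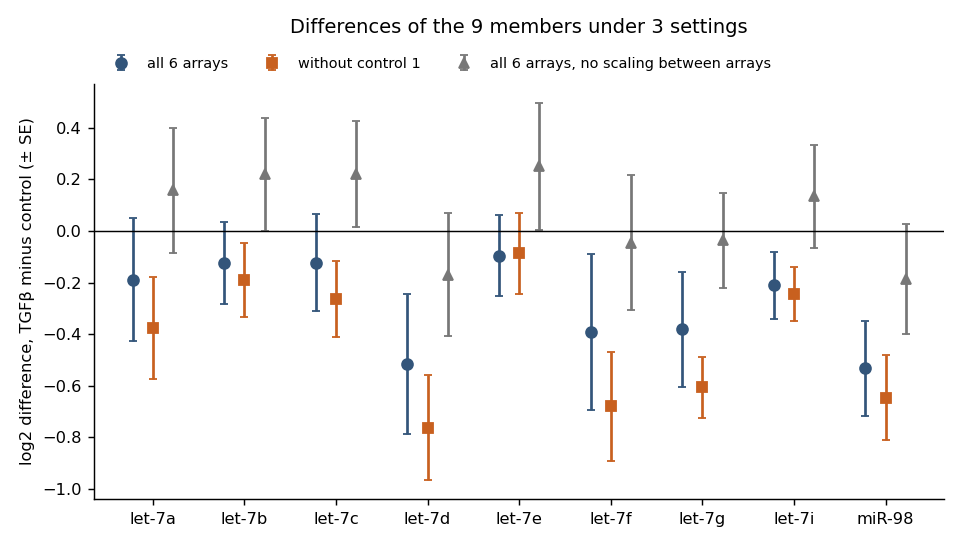
Log2 difference of each member, TGFβ minus control, with its standard error, for all 6 arrays, without control 1, and for all 6 arrays with no scaling between arrays. All 9 points are below 0 in the first 2 settings, and 5 of 9 are above 0 without scaling.

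A comparison of members within an array does not depend on the scaling factor, and in it the groups of 2 members did not overlap. miR-98 was set against the mean of the other 8 members on the same array. This value was -3.99, -4.08 and -4.10 for the controls in order and -4.40, -4.31 and -4.29 for the TGFβ arrays. The 3 controls, control 1 included, lay together and the 3 TGFβ arrays lay below them, with means of -4.06 ± 0.06 (control) and -4.34 ± 0.06 (TGFβ; SD over 3 arrays each). The difference was -0.28. let-7c relative to the other 8 was 1.56, 1.56 and 1.52 on the controls and 1.78, 1.72 and 1.68 on the TGFβ arrays, higher by 0.18 with no overlap. The other 7 members overlapped, with relative differences between -0.26 (let-7d) and 0.21 (let-7e).

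This view was chosen after the values were seen, so no test is given. Set against the family in the same way, 2 of 84 tested miRNAs were lower without overlap, miR-98 included (2.38%), and 10 of 84 were higher, let-7c included (11.9%). A rise without overlap was therefore not particular to let-7c. With its brighter probe alone (A_54_P3783) miR-98 stood at -0.22 relative to the other members, also without overlap. The other probe (-0.36) was well above background on only 2 of 6 arrays and adds no independent support. With normexp background correction, whose offset of 50 compresses dim signals, the miR-98 difference was -0.11 and the groups overlapped, and the part of background in it was not tested. With quantile normalization miR-98 stood at -0.19 and let-7c at -0.15, both with overlap.

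**Figure D3:**
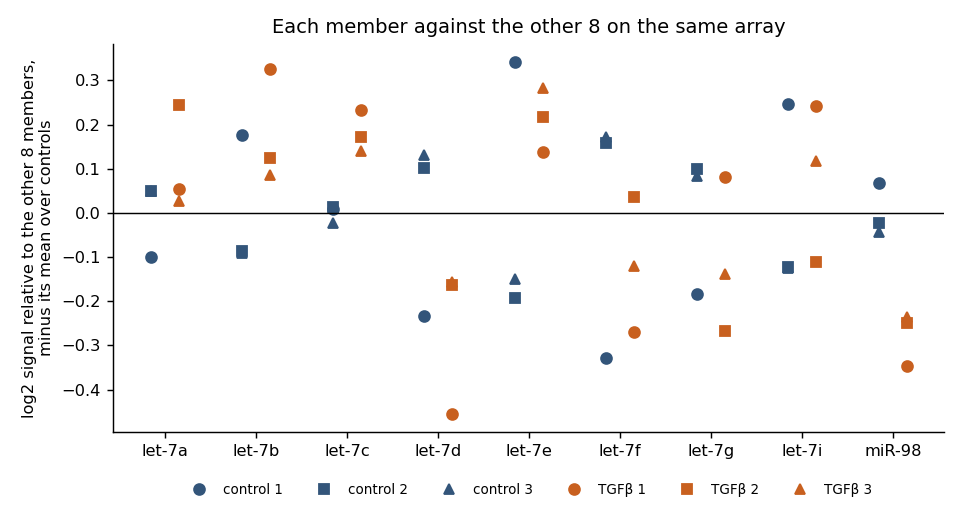
Log2 signal of each member relative to the mean of the other 8 on the same array, minus the mean of this value over the 3 controls. The 3 TGFβ arrays lie below the 3 controls for miR-98 and above them for let-7c, and the groups overlap for the other 7 members.

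The probes of a member mostly moved together. Of the 18 probes 17 had a negative difference, and the gap between the probes of a member was 0.05 at the median. It was 0.0007 for let-7b and 0.0066 for let-7c. The widest gap was that of let-7e, whose brighter probe differed by -0.13 and dimmer probe by 0.07. The brighter probe of miR-98 (A_54_P3783), which passed the background criterion on all 6 arrays, gave -0.47 and overlapped between the groups, with 5.03 on control 1 and 5.06 on TGFβ 2. Its dimmer probe (A_54_P1340), which passed on 2 of 6, gave -0.61 without overlap, so the separation of the groups for miR-98 came with the probe near background. The probes of let-7i, brighter first, gave -0.23 and -0.11, and its dimmer probe overlapped between the groups.

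The values can also be set out by gene position, with no test of the differences between members. The members made from the chromosome 13 group differed by -0.51 (let-7d, SE 0.27), -0.39 (let-7f, SE 0.30) and -0.19 (let-7a, SE 0.24), although let-7f and let-7a also come from genes elsewhere. The chromosome 15 neighbours let-7b and let-7c had nearly the same value, -0.13 and -0.12, and let-7c also comes from chromosome 16. Without control 1 let-7b and let-7c stood at -0.19 and -0.26, and let-7d, let-7f and let-7a at -0.76, -0.68 and -0.38. By sequence, the members with the fewest G and C bases, let-7f and miR-98 with 7 of 22, were among the 4 with the largest differences. let-7g and let-7a have 8, with differences of -0.38 and -0.19. let-7d has 9, as do let-7c, let-7e and let-7i, and let-7b has 10.

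The position on the slide was the other grouping that the files give. Slide columns 1 and 2 each held an array of both groups, and they gave opposite directions for most members. The control of column 1 was control 1, which lay apart from the other controls, so column and control 1 cannot be told apart here. Set against the mean of controls 2 and 3, TGFβ 2 was lower for 8 of 9 members (median -0.18), beside 49 of 84 tested miRNAs. In column 1, TGFβ 2 was higher than control 1 for 7 of 9 members, by 0.52 for let-7a and 0.54 for let-7f, and lower for let-7i (-0.10) and miR-98 (-0.06). In column 2, TGFβ 3 was lower than control 2 for 9 of 9, from -0.13 (let-7e) to -0.80 (let-7f), with -0.74 for miR-98 and -0.34 for let-7i. The median over all 84 tested miRNAs was 0.03 in column 1 and -0.10 in column 2. Control 3 and TGFβ 1 were each alone in a column, so with the column as a block the difference rests only on the pairs of columns 1 and 2. In that fit 0 members passed, which says little with so few arrays compared. The differences were -0.40 for miR-98, -0.31 for let-7g and -0.02 for let-7a. Slide row 1 held all 3 controls and TGFβ 1, and row 2 held TGFβ 2 and TGFβ 3 but no control. With the row as a block the difference is therefore that of TGFβ 1 alone from the controls, with a median of -0.32 over the members.

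**Figure D4:**
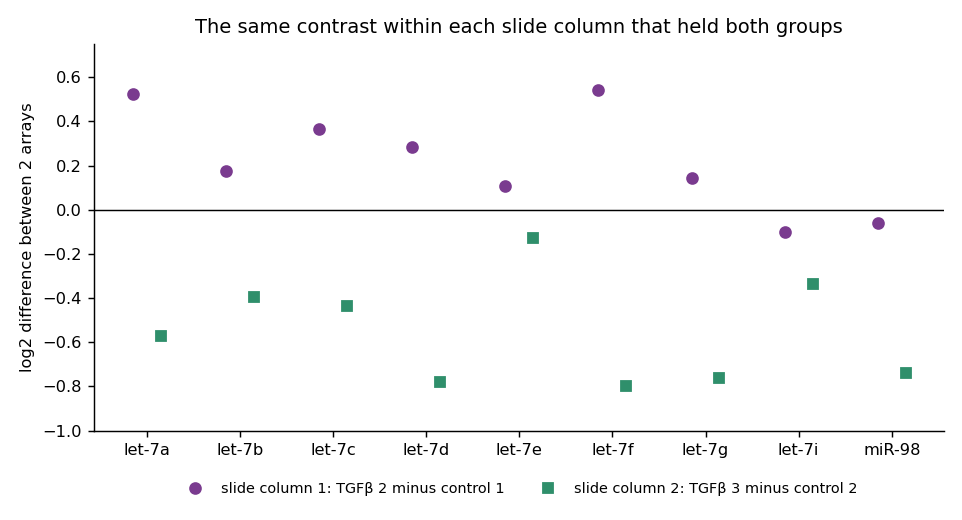
Log2 difference between the TGFβ array and the control array of slide column 1 (circles) and of slide column 2 (squares) for each member. The control of column 1 is control 1. let-7i and miR-98 are below 0 in both columns, and the other 7 members are above 0 in column 1 and below 0 in column 2.

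The opposite arms of the precursors gave no usable level. The array held 7 of them (let-7a-1*, let-7b*, let-7c-1*, let-7d*, let-7f-1*, let-7g* and let-7i*), and 0 of 7 were well above background on any array. Their differences were therefore not tested.

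Of 5 miRNAs transcribed with a let-7 gene, 3 were tested, and none passed. miR-99b and miR-125a-5p, the neighbours of let-7e, differed by 0.23 (SE 0.19) and 0.05 (SE 0.14). miR-125b-5p, whose genes lie near Mirlet7a-2 and Mirlet7c-1, read 7.37, 6.43 and 6.38 on the controls and 7.80, 7.96 and 7.43 on the TGFβ arrays. All 3 TGFβ arrays were above all controls, by 1.00 on average (SE 0.32, limma adjusted p = 0.391), beside 7 of 84 tested miRNAs higher in this way. Without control 1 it was the 1 of 3 that passed, beside 31 of 85 tested miRNAs, 20 of them lower. Its difference was positive under all 31 alternatives, from 0.57 to 1.83. That of miR-99b turned negative under 3 of 31 and that of miR-125a-5p under 8 of 31. Their lowest values were -0.20 and -0.38, with total signal scaling, and they were -0.07 and -0.03 with normexp. miR-99a and miR-100, the other miRNAs of those groups, had no probe above the background criterion on any array.

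Also tested were 3 miRNAs with a seed close to that of let-7. miR-196a and miR-196b carry AGGUAGU and miR-202-3p carries GAGGUAU at bases 2 to 8. Their differences were -0.12 (SE 0.22), -0.19 (SE 0.18) and -0.22 (SE 0.92), and 0 of 3 passed with or without control 1. Without scaling between arrays all 3 were positive (0.22, 0.15 and 0.12). Of 15 miRNAs linked to TGFβ in kidney cells 5 were tested, 5 of 5 with a positive difference and 0 past the threshold. They were miR-21 (0.40, SE 0.26), miR-29a (0.39, SE 0.25), miR-29b (0.23, SE 0.37), miR-29c (0.13, SE 0.21) and miR-155 (0.05, SE 0.15). Each of the 5 turned negative under at least 1 alternative, total signal scaling among them, and miR-29c (-0.11) and miR-155 (-0.11) also with normexp. The lowest value was that of miR-21, which came to -0.60 with quantile normalization. miR-29a, whose family targets collagen messenger RNAs, was the 1 of 5 that passed without control 1, beside 31 of 85 tested miRNAs, 20 of them lower.

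Other miRNAs shared the family's profile over the 6 arrays. The mean centred signal of the 9 members was -0.13, 0.29 and 0.27 for the controls and -0.25, 0.09 and -0.26 for the TGFβ arrays, so controls 2 and 3 were highest and TGFβ 2 came next. By root mean square distance over the 6 arrays the nearest of 75 other tested miRNAs were miR-15b (0.07), miR-10a (0.08), miR-103 (0.09), miR-107 (0.09) and miR-342-3p (0.10), where the median distance of the 75 was 0.34. let-7c (0.08) and let-7a (0.09) were the nearest members, each measured against a mean that contains it. let-7f (0.17), let-7d (0.18) and let-7e (0.18) were the farthest, and a flat profile would lie at 0.23. Each of these 5 had a negative difference with all 6 arrays, a sign that choosing them by likeness to the family's profile largely sets, from -0.20 (miR-103) to -0.35 (miR-10a), and none passed. All 5 were positive with no scaling and control 1 left out, and 4 of them (not miR-10a) also with no scaling of all 6 arrays.

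**Figure D5:**
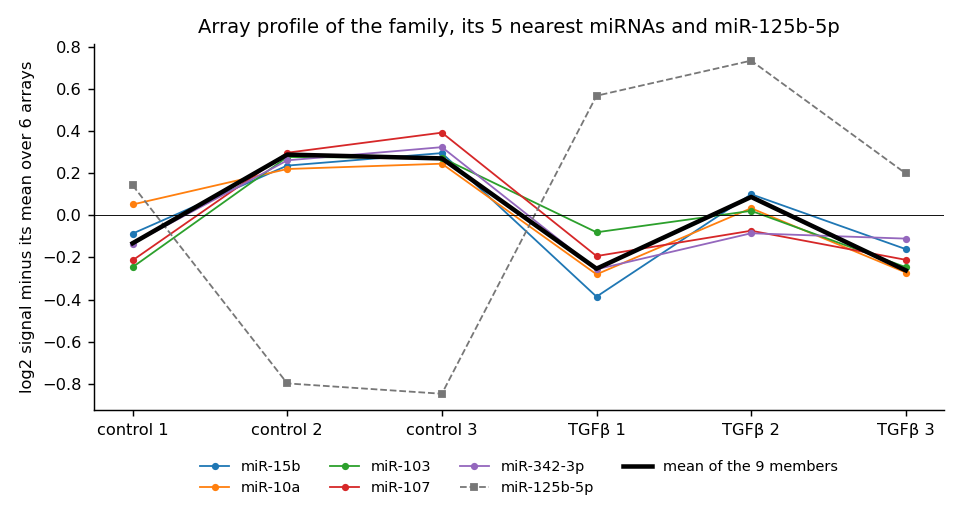
Log2 signal on each array minus the mean over the 6 arrays, for the mean of the 9 members (thick line), its 5 nearest miRNAs and miR-125b-5p (dashed), with lines joining the values of a miRNA. The mean of the members and its nearest miRNAs are highest on controls 2 and 3, where miR-125b-5p is lowest.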

How the data were processed

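The members, lists and tests were chosen with earlier results of these data known. The deposited scanner files hold spot intensity, background-subtracted by Agilent Feature Extraction (version 10.7.3.1 per the file headers, 10.1.1 per the submitters' processing notes) and not scaled between arrays. The headers name build mm9, and no array coordinate is used. The deposited value table held the same intensity values (largest difference 0). Further deposited columns gave flags of 0 or 1 for each spot. None was saturated. Groups came from sample titles.

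Spots without outlier flags were averaged per probe and probes per miRNA. Arrays were scaled by the 75th percentile (249.5 to 402.4 intensity units) of 105 probes that passed the background criterion on every array, with a floor of 1 before log2. That criterion was a share of at least 0.5 of a probe's spots marked well above background, and a miRNA passed where any probe did. The 84 miRNAs well above background on all arrays of a group were tested with limma 3.58.1 (R 4.3.3, two-sided, Benjamini-Hochberg over all tested, threshold 0.05). The fit was first run on simulated data, with changes larger than those of the members and independent noise. That run does not cover differences as small as the members', nor an array that lies apart as control 1 did. Named were the 9 members, their opposite arms, the fixed lists and the 5 nearest profiles. The labels state no pairing, but deviations of same-numbered arrays correlated (0.38, 0.37 and 0.52 over the 84 miRNAs), so the numbers were taken as pairs in an alternative. Control 2 and TGFβ 3 correlated as much (0.38), so the data bear this pairing out only weakly. The normexp alternative used the median spot signal and background with an offset of 50. The number of arrays limits the precision.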

Additional observations from a re-analysis of the deposited data

How the results depend on the processing

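Over 31 alternatives to each member's difference (279 values), 249 kept their sign and stayed short of the threshold, 12 passed it and 18 turned sign, all 18 under other scalings. let-7d, let-7f, let-7g and miR-98 never turned. Without scaling the values that turned were let-7a 0.16, let-7b 0.22, let-7c 0.22, let-7e 0.25 and let-7i 0.13 (median of members 0.13), and without scaling and control 1 they were 0.14, 0.32, 0.25, 0.43 and 0.27 (median 0.14, 20 miRNAs called). With the spike-in and no control 1 they were 0.0060, 0.19, 0.12, 0.30 and 0.14 (median 0.0060, 16 called). With the percentile over miRNAs let-7b, let-7c and let-7e were 0.025, 0.026 and 0.055 (median -0.061). The median of members was -0.64 with total signal (1 called), -0.43 with array weights (45 called, 6 of them members), and -0.52 with quantile normalization and no control 1 (12 called). Leaving out 1 array gave medians from -0.38 (without control 1) to -0.17 and from 0 to 31 calls, of which 0 to 3 were members. Without TGFβ 2 the median was -0.36. With normexp and no control 1, 35 were called, 3 of them members. The row block, which sets TGFβ 1 alone against the controls, gave a median of -0.32. The replicate block called 1 miRNA and changed no other call, members included. At an unadjusted p under 0.05 there were 8 miRNAs and 1 member. let-7c relative to the other members turned to -0.15 with quantile normalization. The scalings with a turned sign were partly chosen after seeing the data (percentile over miRNAs, and every setting that joins control 1 with another change), as was Feature Extraction's total gene signal. Where a scaling other than quantile turned a sign, it moved all miRNAs by the same factor per array. Otherwise the cause was not tested.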
